A study of Homo sapiens with 35 samples.

Results

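Transcripts of the ATPase VCP (p97) and of 9 cofactors that bind it or its substrates were followed in RPMI-8226 cells, an established human multiple myeloma line, before and after a pulse of the proteasome inhibitor carfilzomib. The 10 genes were chosen by name, by a rule that holds no measured value although earlier results of these data were known, and their protein-coding entries were 10 of 19665 protein-coding entries in the count table. They were VCP, NPLOC4, UFD1L (the older symbol of UFD1), NSFL1C, FAF1, FAF2, UBXN1, UBXN4, UBXN7 and PLAA. Cells received 750 nM carfilzomib for 1 h, were washed, and were grown on in medium without drug. Libraries were made before the pulse (day 0) and at 6 times after it (days 1 and 2, then every other day to day 10), 5 at each and 35 in all. The labels list the carfilzomib treatment for every library including those of day 0, whereas the methods of the study place the day 0 collection ahead of the drug, so day 0 is treated here as untreated. The 5 libraries of a day came from subcultures of a single expanded culture of 1 cell line, so that p-values measure the spread between these subcultures and not between separate experiments.

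VCP is a hexameric ATPase that pulls ubiquitinated proteins out of membranes and complexes and unfolds them, often ahead of their degradation by the proteasome. Its cofactors decide which substrates it meets. The heterodimer of NPLOC4 and UFD1 presents ubiquitin chains to VCP, NSFL1C (p47) is an alternative adaptor with a role in membrane fusion, FAF1, FAF2, UBXN1, UBXN4 and UBXN7 carry UBX domains that dock on VCP, and PLAA links VCP to ubiquitin and to the clearance of damaged organelles. In cells with an inhibited proteasome, VCP also takes part in releasing the transcription factor NRF1 (NFE2L1) from the endoplasmic reticulum (ER), a step in the renewed synthesis of proteasome subunits known as bounce-back.

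The depth was 6519392 to 10962890 counts per library, of which 5373835 to 9307889 fell in protein-coding entries. Levels are given in CPM, protein-coding counts scaled to a common library size (counts per 1e6) after TMM scaling between libraries. The label of a myeloma line held for 8 of 9 plasma cell and myeloma markers, among them SDC1 at 209.6 to 362 CPM and XBP1 at 369.8 to 498 CPM, whereas CD27 reached at most 0.704 CPM. Among the markers of other lineages reported here, CD14, LYZ, HBB and CD3E reached at most 4.81 CPM, MS4A1 lay between 3.73 and 13.3 CPM, and EPCAM lay between 43.97 and 95.7 CPM.

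The promoters of 4 members are shown because VCP, PLAA and NSFL1C were among the members that rose more than 2-fold on day 1, while UBXN1 was the member called lower. A RefSeq promoter was found for 9 of the 10 members, all but UFD1L, in a table of 35116 promoters of 300 bases (250 bases before and 50 bases after the start site, build GRCh38.p14). The entry of NPLOC4 lay 59679 bases from the start of its canonical transcript. Each line gives the 250 bases before the start site, 5′ to 3′ on the strand of the gene, for VCP at chr9:35072626-35072875 (minus strand), PLAA at chr9:26947243-26947492 (minus strand), NSFL1C at chr20:1466850-1467099 (minus strand) and UBXN1 at chr11:62679074-62679323 (minus strand). Capitals mark matches, on either strand, to TGACNNNGC, the core of the antioxidant response element at which NRF1 and NRF2 can bind, or to CCAAT, the box bound by NF-Y.
VCP: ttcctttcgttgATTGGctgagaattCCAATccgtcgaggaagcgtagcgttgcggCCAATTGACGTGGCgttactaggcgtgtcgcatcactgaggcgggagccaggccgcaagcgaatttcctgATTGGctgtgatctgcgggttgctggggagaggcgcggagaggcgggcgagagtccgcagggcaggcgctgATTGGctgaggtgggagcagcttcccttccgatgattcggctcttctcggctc
PLAA: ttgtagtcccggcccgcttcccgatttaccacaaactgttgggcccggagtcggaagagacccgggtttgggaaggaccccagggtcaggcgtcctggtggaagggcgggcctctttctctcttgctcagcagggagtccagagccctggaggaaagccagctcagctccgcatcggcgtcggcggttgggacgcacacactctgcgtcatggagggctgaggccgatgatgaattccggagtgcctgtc
NSFL1C: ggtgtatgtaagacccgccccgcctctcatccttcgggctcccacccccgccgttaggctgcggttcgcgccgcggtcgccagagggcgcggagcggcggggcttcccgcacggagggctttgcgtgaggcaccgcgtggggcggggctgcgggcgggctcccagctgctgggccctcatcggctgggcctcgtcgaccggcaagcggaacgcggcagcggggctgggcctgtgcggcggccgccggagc
UBXN1: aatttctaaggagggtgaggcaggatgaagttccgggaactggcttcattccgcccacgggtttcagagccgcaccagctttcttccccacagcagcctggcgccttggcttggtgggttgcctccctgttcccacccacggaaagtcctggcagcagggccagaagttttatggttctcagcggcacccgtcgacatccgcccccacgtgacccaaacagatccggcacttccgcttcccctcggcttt
TGACNNNGC was present in 13.3% of all promoters in the table and CCAAT in 34.6%. TGACNNNGC was found in 3 of the 9 member promoters. In VCP it began at position -189 from the start site as TGACGTGGC and touched, without overlap, the CCAAT box that began at -194. In FAF2 it began at -18, and in PLAA it lay on the opposite strand at position 7 after the start site, beyond the bases shown. CCAAT was found in 2 of the 9, with 5 matches in the window of VCP and 1 in that of NPLOC4, and neither set of letters occurred in the windows of NSFL1C and UBXN1. These matches describe the sequence and carry no measurement of binding.

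Day 1 was compared with day 0 to ask how the p97 system responded to acute proteasome inhibition. On day 1, 7 of the 10 members rose at Q ≤ 0.05, UBXN1 fell, and UBXN7 and FAF1 did not pass the test (edgeR, adjusted over all 17999 protein-coding entries with a count). Of all entries tested, 52.7% were called on that day, 25.4% as higher and 27.3% as lower. VCP, NPLOC4, UFD1L, NSFL1C and PLAA also rose more than 2-fold, 5 of 10 members beside 7.27% of all entries called higher at that cutoff. The median log2 fold change was 1.07 over the 10 members and -0.061 over all entries tested.

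The size of these values depends on the scaling. When the protein-coding entries were instead taken from a fit of all transcript biotypes, an alternative chosen after seeing the data and called here the all-biotype fit, log2 fold changes of protein-coding entries shifted by a median of 0.21, 0.19, 0.13, 0.061, 0.11 and 0.088 from day 1 to day 10. Among protein-coding entries called, the share called higher on day 1 went from 48.2% to 63.1%, on day 2 from 48.7% to 66.3% and on day 10 from 50.4% to 66.0%. For days 4, 6 and 8 it went from 48.6%, 50.6% and 49.5% to 65.8%, 61.9% and 64.8%. Without TMM factors it was 59.3% on day 2 and lay between 55.5% on day 8 and 61.6% on day 4. With RLE factors, another scaling between libraries, it stayed near the main fit, between 46.3% on day 1 and 49.8% on days 8 and 10. Q in the all-biotype fit was adjusted over its 65717 entries in place of 17999. A call lost there can therefore reflect the adjustment as well as the scaling. Ratios of members within a library are free of the choice of scaling.

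**Figure D1:**
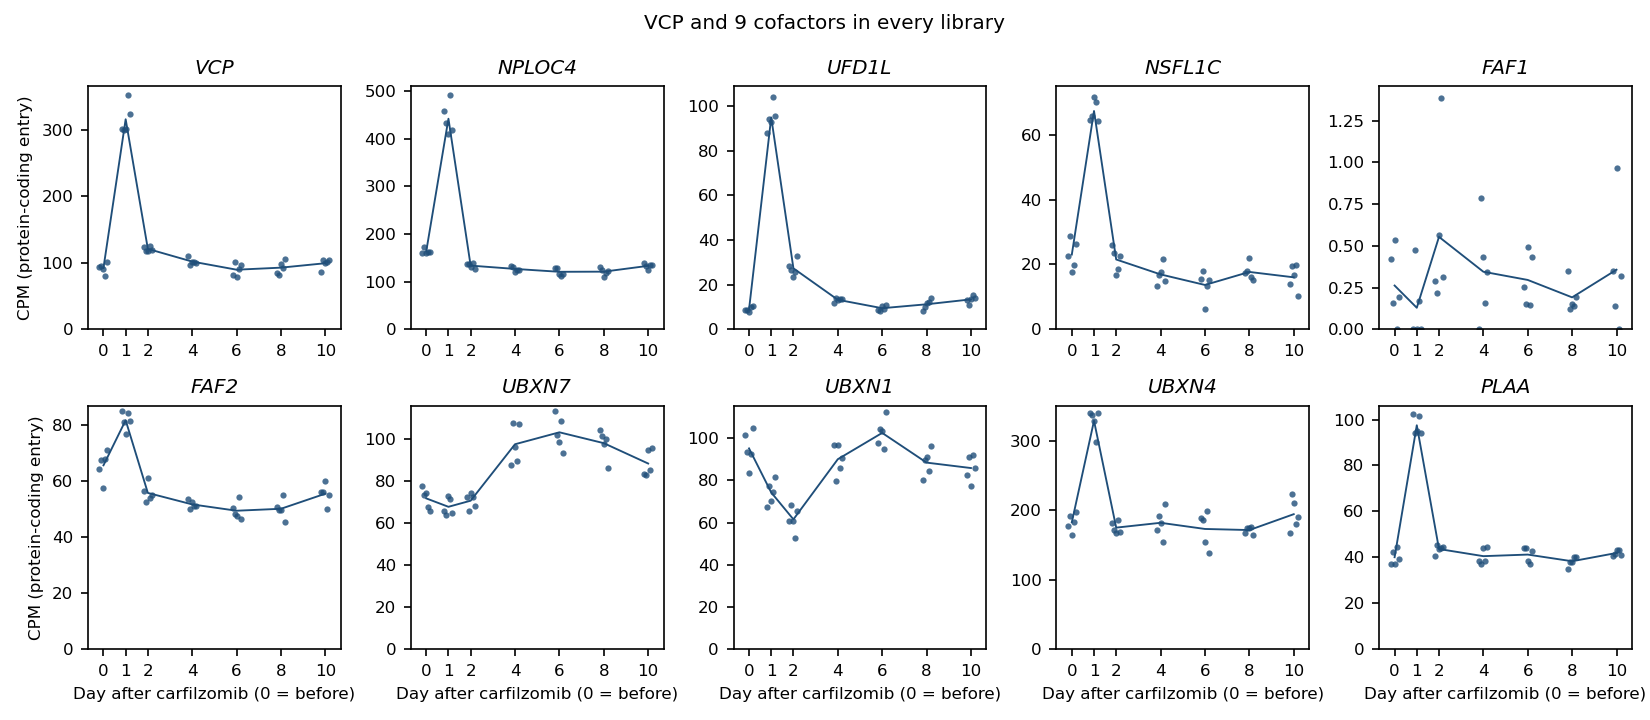
CPM of the protein-coding entry (vertical axes, linear and starting at 0) of VCP and 9 cofactors by day (horizontal axes), where each point is 1 library, 5 per day, and the lines join the day means. VCP, NPLOC4, UFD1L, NSFL1C, UBXN4 and PLAA peak on day 1, UBXN7 is highest on day 6, and FAF1 reaches at most 1.39 CPM in any library.

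VCP lies at chr9:35053928-35072668 (GRCh38, minus strand) and its canonical transcript has 17 exons. The 5 day 0 libraries held 93.1, 95.5, 90.3, 80.8 and 102 CPM. The 5 day 1 libraries held 302, 300.5, 301, 352 and 324 CPM. All day 1 libraries thus lay above all day 0 libraries, with no overlap. The log2 fold change was 1.77 ± 0.068 (SE; Q = 1.65e-24, edgeR). In bulk RNA, a change in the RNA of each cell and a change in which cells remained cannot be told apart, here and in all results that follow.

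UFD1L, a ubiquitin-binding subunit of the adaptor heterodimer, lies at chr22:19449911-19479202 (minus strand, 12 exons) and rose most of the 10 members. On day 0 its protein-coding entry held 8.44, 8.41, 7.51, 9.82 and 10.2 CPM. On day 1 it held 87.8, 94.3, 92.8, 104 and 95.4 CPM. No library of one day came near the other day. The log2 fold change was 3.42 ± 0.11 (SE; Q = 2.55e-27, edgeR). When the counts of all transcript biotypes of UFD1L were summed, it was 2.31 ± 0.078 (SE; Q = 7.02e-33, edgeR).

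NPLOC4, the partner of UFD1 in the heterodimer, lies at chr17:81556887-81648465 (minus strand, 17 exons). Its day 0 libraries held 161, 173, 159, 162 and 162 CPM and its day 1 libraries 458, 432, 409, 491 and 418 CPM. The groups did not overlap, and the rise was 1.43 ± 0.052 on the log2 scale (SE; Q = 1.77e-25, edgeR). NSFL1C (chr20:1442162-1473842, minus strand, 9 exons), whose product competes with the heterodimer for VCP, held 22.6, 28.7, 17.7, 19.8 and 26.4 CPM on day 0 and 64.7, 65.9, 71.8, 70.1 and 64.2 CPM on day 1. Again every day 1 library exceeded every day 0 library, with a log2 fold change of 1.54 ± 0.16 (SE; Q = 2.22e-11, edgeR).

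PLAA (chr9:26903372-26947242, minus strand, 14 exons) held 37.1, 42.2, 37.0, 44.3 and 39.5 CPM on day 0 and 103, 94.0, 95.2, 102 and 94.2 CPM on day 1, without overlap. Its log2 fold change was 1.29 ± 0.063 (SE; Q = 4.71e-21, edgeR). UBXN4 (erasin), which tethers VCP to the ER membrane and lies at chr2:135741734-135785056 (plus strand, 13 exons), rose by less than 2-fold in the fit of protein-coding entries. Its libraries held 177, 192, 164, 183 and 198 CPM on day 0 and 340, 337, 329, 298 and 340.3 CPM on day 1. The groups were apart, with a log2 fold change of 0.85 ± 0.078 (SE; Q = 1.45e-12, edgeR), which was 1.05 in the all-biotype fit.

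The transcripts of FAF1 and FAF2 stood at very different levels. FAF2 (UBXD8; chr5:176447628-176510074, plus strand, 11 exons), an ER and lipid droplet protein that recruits VCP, held 64.3, 67.6, 57.6, 67.9 and 71.0 CPM on day 0 and 85.0, 81.1, 77.0, 84.4 and 81.5 CPM on day 1. All day 1 libraries were above all day 0 libraries, although the log2 fold change was only 0.32 ± 0.059 (SE; Q = 1.24e-05, edgeR), or 0.52 in the all-biotype fit. FAF1 (chr1:50437028-50960267, minus strand, 19 exons) had 0 to 9 counts per library and 70 counts in all 35 libraries together. It passed no test on any day, and at this depth a change in FAF1 was not detectable.

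UBXN1 (SAKS1; chr11:62676498-62679117, minus strand, 9 exons), which binds ubiquitin chains and VCP, was the member called lower on day 1. Its libraries held 102, 93.6, 83.7, 92.6 and 105 CPM on day 0 and 67.5, 77.6, 70.3, 74.6 and 81.7 CPM on day 1. Every day 1 library was below every day 0 library, and the log2 fold change was -0.36 ± 0.071 (SE; Q = 3.35e-05, edgeR). It was -0.15 in the all-biotype fit and did not pass (Q = 0.274, edgeR). UBXN7 (chr3:196347662-196432430, minus strand, 11 exons), which connects VCP to cullin-RING ubiquitin ligases, held 77.5, 73.2, 74.2, 67.5 and 65.5 CPM on day 0 and 65.7, 63.9, 72.6, 71.2 and 64.4 CPM on day 1. These groups overlapped, and the log2 difference of -0.087 had a 95% interval from -0.23 to 0.052 (Q = 0.307, edgeR).

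Later days were compared with day 0 to ask whether each transcript returned to its level before the pulse. On day 2, UFD1L and VCP were still higher and NPLOC4, FAF2 and UBXN1 were lower, 2 and 3 members beside 23.2% and 24.4% of all entries called higher and lower. VCP stood at 121 ± 3.74 CPM (SD, n = 5) on day 2, all 5 libraries above day 0, with a log2 fold change of 0.39 ± 0.069 (SE; Q = 7.02e-06, edgeR). From day 4 to day 10 VCP did not pass the test, with log2 differences of 0.14, -0.044, 0.0022 and 0.11 in the order of days. The day 4 value did pass without day 0 replicate 5 (0.20), without day 4 replicate 2 (0.18), without TMM factors (0.25), with biotypes summed (0.21) and in the all-biotype fit (0.27).

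UFD1L fell by 1.80 on the log2 scale between days 1 and 2 in its protein-coding entry and was still above day 0. Its 5 day 2 libraries held 28.4, 26.5, 23.2, 25.6 and 32.7 CPM, all above day 0, and its log2 fold change was 1.62 ± 0.11 (SE; Q = 8.09e-16, edgeR). It was also higher on day 4 at 0.58 ± 0.12 (SE; Q = 1.82e-04, edgeR) and on day 10 at 0.60 ± 0.12 (SE; Q = 1.65e-04, edgeR), with 5 of 5 libraries above all of day 0 on both days. On day 6 the difference was 0.091 and did not pass. The day 8 call at 0.33 (Q = 0.0353, edgeR) was lost without day 0 replicates 1, 2 or 3 (0.33, 0.33 and 0.28) and without day 8 replicates 3, 4 or 5 (0.31, 0.32 and 0.27), and in a fit of only these days (0.35). With all biotypes summed, UFD1L differed from day 0 by -0.064, -0.056, -0.096 and 0.039 from day 4 to day 10, and none of these passed.

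NPLOC4 went the other way after day 1. It held 138, 133, 124.2, 135 and 135 CPM on day 10, and from day 2 onwards all 5 libraries of each day lay below all day 0 libraries. The log2 fold changes were -0.29, -0.37, -0.44, -0.44 and -0.30 in the order of days, each with an SE of at most 0.053 and each past the test, with Q between 6.02e-09 and 1.47e-05 (edgeR). The day 2 value was -0.11 in the all-biotype fit and did not pass (Q = 0.264, edgeR), while the other days passed. FAF2 was also lower on these days, at -0.23, -0.34, -0.41, -0.39 and -0.24 with SEs of at most 0.061, and Q was at most 0.00154 (edgeR). Without TMM factors the day 2 value of FAF2 was -0.10 and did not pass, and in the all-biotype fit the values of days 2 and 10 were -0.049 and -0.15 and did not pass (Q = 0.742 and 0.211, edgeR).

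NSFL1C was lower on days 4, 6 and 10, at -0.45 ± 0.17, -0.75 ± 0.17 and -0.52 ± 0.17 on the log2 scale (SE; Q = 0.0348, 6.11e-04 and 0.0169, edgeR). Its libraries overlapped with day 0 on each of these days, with 3, 4 and 3 of 5 below all of day 0. The day 4 call was lost without day 0 replicates 1, 2 or 5 (-0.44, -0.33 and -0.38), without day 4 replicates 1, 2 or 5 (-0.37, -0.43 and -0.39) and without TMM factors (-0.33). The day 10 call was lost without day 0 replicates 2 or 5 (-0.41 and -0.46) or day 10 replicate 5 (-0.38). In the all-biotype fit the values of days 4 and 10 were -0.32 and -0.43 and did not pass (Q = 0.320 and 0.167, edgeR). The day 8 value of -0.38 (Q = 0.0774, edgeR) passed with biotypes summed (-0.38), in a fit of only these days (-0.37), and without day 0 replicate 3 (-0.46) or day 8 replicate 3 (-0.47).

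UBXN7 was the member that rose late. It held 113, 102, 98.5, 109 and 93.1 CPM on day 6 and 83.4, 82.5, 94.5, 85.0 and 95.3 CPM on day 10, all above the highest day 0 library. Its log2 fold changes were 0.44, 0.52, 0.45 and 0.30 from day 4 to day 10, each with an SE of at most 0.067, and Q was at most 4.76e-04 (edgeR). UBXN1 reached its lowest level on day 2, at 61.6 ± 5.92 CPM (SD, n = 5) and a log2 fold change of -0.63 ± 0.071 (SE; Q = 5.49e-10, edgeR), and did not pass on days 4 to 10, apart from a day 10 value of -0.19 that passed without day 0 replicate 3 and a day 6 value of 0.16 that passed without TMM factors. With biotypes summed UBXN1 was lower on days 4, 8 and 10, at -0.22, -0.24 and -0.20. UBXN4 and PLAA did not pass on any day after day 1 in the fit of protein-coding entries. With biotypes summed UBXN4 was lower on days 2, 4, 6 and 8, at -0.18, -0.15, -0.12 and -0.25. The day 2 value of PLAA, 0.13, passed with biotypes summed (0.18), without TMM factors (0.26) and in the all-biotype fit (0.31, Q = 0.00211, edgeR).

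**Figure D2:**
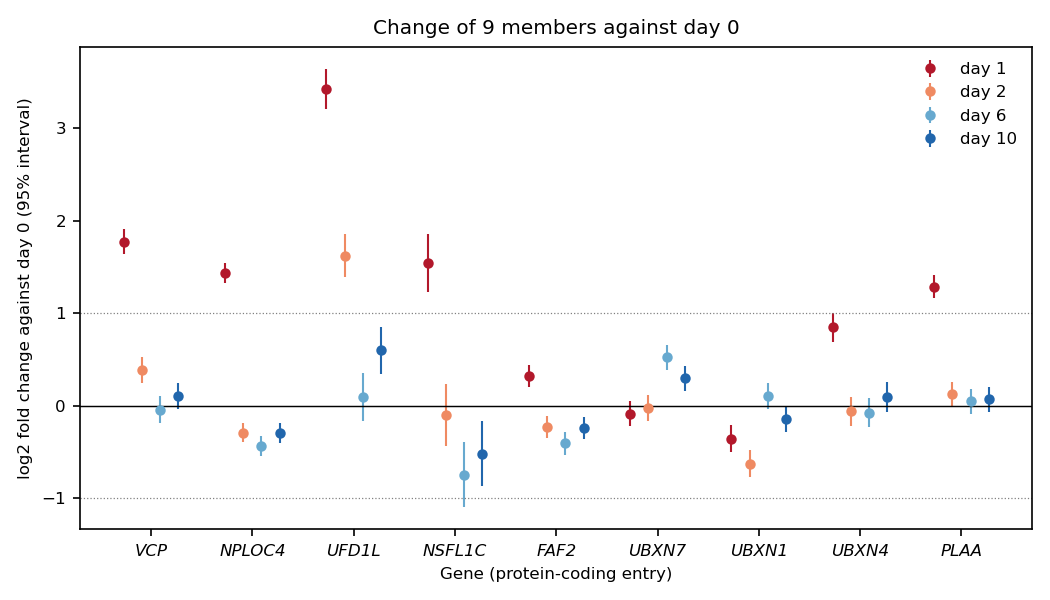
Log2 fold change against day 0 (vertical axis) of 9 members (horizontal axis) on days 1, 2, 6 and 10, with bars for the 95% interval of the edgeR fit and dotted lines at a 2-fold change. On day 1, 5 points lie above the upper dotted line, with UFD1L at 3.42, and NPLOC4, FAF2 and NSFL1C lie below 0 on day 10, at -0.30, -0.24 and -0.52.

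On the remaining days the calls among the 10 members lay near the share over all entries for so few genes, and no difference was tested. On day 4, 2 members were higher and 3 lower, 5 of 10 beside 39.1% of all entries. Day 6 had 1 higher and 3 lower beside 34.5%, day 8 had 2 and 2 beside 36.8%, and day 10 had 2 and 3 beside 31.9%. UFD1L passed the 2-fold cutoff on day 2, beside 6.32% of all entries called higher at that cutoff. After day 2 no member passed it, beside 9.41%, 6.71%, 8.18% and 5.93% of all entries in the order of days.

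Each time point was also compared with the one before it. Between days 1 and 2, 8 of 10 members were called, all of them lower, beside 39.6% of all entries called in either direction. VCP, NPLOC4, UFD1L, NSFL1C and PLAA fell more than 2-fold, beside 3.49% of all entries called lower at that cutoff. Between days 2 and 4, UBXN7 and UBXN1 rose and VCP and UFD1L fell, 4 of 10 beside 30.6%. Between days 4 and 6, 1 member was called, beside 12.1%. Between days 6 and 8 edgeR called 0 members beside 2.56%, with 2 at an unadjusted p under 0.05 and 0 called by DESeq2. Between days 8 and 10 edgeR also called 0 members beside 10.1%, with 5 at an unadjusted p under 0.05 and 0 called by DESeq2.

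In the order of levels over days, day 1 ranked first for VCP, NPLOC4, UFD1L, NSFL1C, FAF2, UBXN4 and PLAA and differed from the next day in the order for each. For VCP the order went on with days 2, 4, 10, 8, 0 and 6, and from day 4 down no neighbours differed at Q ≤ 0.05. For NPLOC4 day 0 came second and differed from day 2, the next in the order (Q = 8.01e-06, edgeR), below which no neighbours differed. Days farther apart in the order could still differ, as NPLOC4 did on day 6 against day 2 (log2 difference -0.15, Q = 0.0217, edgeR). For UBXN7 days 6, 8, 4 and 10 came first, without a difference between neighbours, and day 10 differed from day 0 (Q = 4.76e-04, edgeR).

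Levels of the protein-coding entries of different genes were compared per kilobase of the canonical transcript. On day 0, UBXN1 had the highest level at 84.0 ± 7.29 CPM per kb (SD, n = 5), followed by UBXN4 at 48.4 ± 3.43, NPLOC4 at 37.3 ± 1.29 and VCP at 24.6 ± 2.05 CPM per kb. UFD1L, at 4.96 ± 0.620 CPM per kb, was the lowest apart from FAF1. On day 1 NPLOC4 led at 100.8 ± 7.63 CPM per kb, above every library of UBXN4 (87.2 ± 4.69) but overlapping with VCP (84.3 ± 6.05), and UFD1L stood at 53.0 ± 3.31 CPM per kb. Per-length levels assume that the counts of an entry came from the canonical transcript. They also leave out other biotypes, which held 64.3% of UFD1L, 52.2% of VCP and 3.29% of NPLOC4 counts on day 0. On day 1 these shares were 19.0%, 55.4% and 4.53%. The order of genes can therefore differ when all biotypes are counted.

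Ratios of 2 members within a library asked whether VCP and its adaptors moved in step, in a form in which library size cancels. Of 30 tests (5 ratios on 6 days, exact two-sided permutation tests of 5 against 5 libraries, smallest possible p 0.00794, adjusted over the 30), 20 passed. NPLOC4 exceeded UFD1L by a log2 ratio of 4.24, 4.35, 4.39, 4.03 and 3.98 in the day 0 libraries. On day 1 the log2 ratio was 2.38, 2.19, 2.14, 2.24 and 2.13. In protein-coding counts the heterodimer's subunits were thus closer in every day 1 library than in any day 0 library, a change of -1.98 (exact permutation test, adjusted p = 0.0149). The ratio stayed below all of day 0 in 5 of 5 libraries on each later day, with changes between -1.90 on day 2 and -0.53 on day 6 (adjusted p = 0.0149 each, exact permutation test). The share of UFD1L counts in biotypes other than protein-coding went from 64.3% on day 0 to 19.0% on day 1. With biotypes summed, the changes on days 1 and 2 kept their direction but were much smaller. Those on days 4 and 10 were -0.24 and -0.29 and did not pass.

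The log2 ratio of VCP to NPLOC4 rose from -0.83 ± 0.12 on day 0 (SD, n = 5) to -0.48 ± 0.089 on day 1 and -0.14 ± 0.050 on day 2. On all 6 later days every library was above every day 0 library, with changes from 0.35 to 0.69 (adjusted p = 0.0149 each, exact permutation test). The log2 ratio of VCP to UFD1L fell by 1.64 on day 1 and by 1.22 on day 2 (adjusted p = 0.0149 each, exact permutation test) and by 0.43 and 0.48 on days 4 and 10 (adjusted p = 0.0251 each, exact permutation test). These falls are those of the protein-coding entries, and with all biotypes summed the fall of this ratio on day 1 was much smaller. With all biotypes summed the change was -0.19 on day 2, which did not pass, and it turned to 0.28, 0.031, 0.14 and 0.10 from day 4 to day 10. VCP and NSFL1C rose together on day 1, with a change of 0.21 in their log2 ratio that did not pass (adjusted p = 0.1242, exact permutation test), and their ratio was higher on days 2, 4, 6 and 10 by 0.49, 0.59, 0.77 and 0.65 (adjusted p at most 0.0357, exact permutation test). The ratio of FAF1 to FAF2 passed on no day and rested on the few counts of FAF1.

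**Figure D3:**
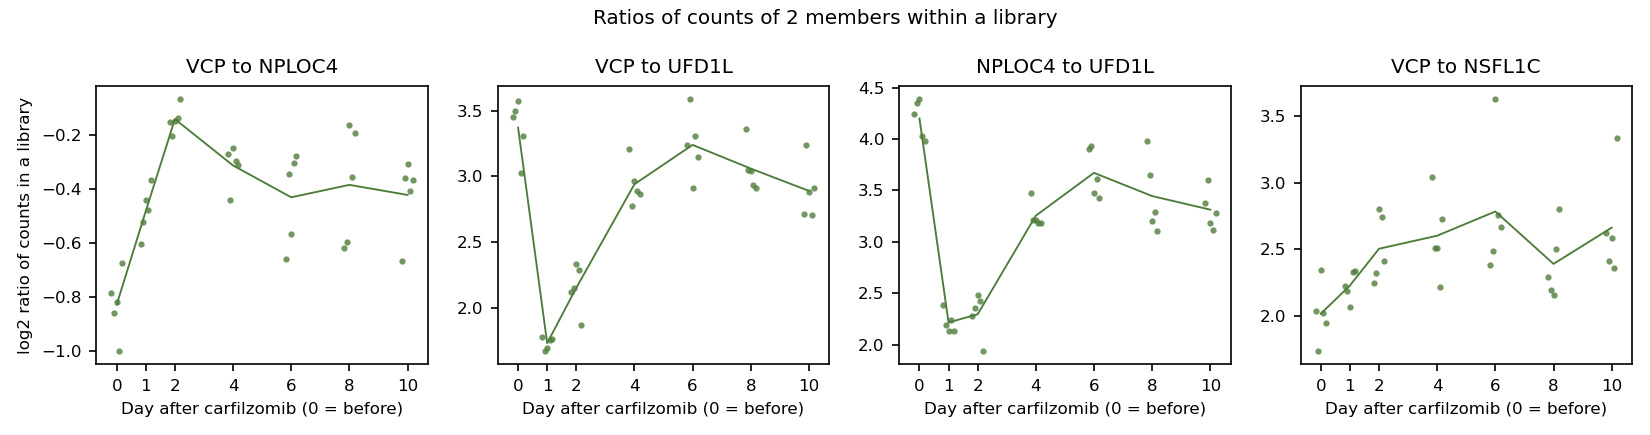
Log2 ratio of the protein-coding counts of 2 members within a library (vertical axes) by day (horizontal axes), where each point is 1 library and the lines join day means. NPLOC4 to UFD1L drops from a mean of 4.20 on day 0 to 2.22 on day 1, and VCP to NPLOC4 lies above its day 0 values on every later day.

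The table also holds entries of the same genes in other transcript biotypes, which the choice of members did not use. In the fit of all 65717 symbol and biotype entries, 21.9% were called on day 1 and 18.4%, 14.2%, 11.5%, 12.8% and 10.3% on the later days in order. The retained intron entry of VCP, which had more counts than its protein-coding entry, rose from 77.4 ± 13.7 to 342 ± 11.7 CPM of all biotypes (SD, n = 5), a log2 fold change of 2.15 ± 0.093 (SE; Q = 9.85e-22, edgeR). The nonsense-mediated decay entry of NSFL1C rose by 2.01 ± 0.13 (SE; Q = 8.90e-17, edgeR). NPLOC4 rose in its small nonsense-mediated decay and processed transcript entries by 2.44 ± 0.73 and 1.80 ± 0.43 (SE; Q = 0.0107 and 0.00115, edgeR). The retained intron entry of UBXN1 fell by 0.71 ± 0.13 on day 1 (SE; Q = 3.35e-05, edgeR) and was lower on all 5 later days, at -0.99 to -0.55. The processed transcript entry of UBXN4 differed by 0.36 ± 0.13 on day 1 (SE; Q = 0.0468, edgeR), a call lost with RLE factors (0.33), and the processed transcript entry of NSFL1C did not pass on any day. After day 1 the retained intron entry of VCP was still higher on days 2 and 4, by 0.53 ± 0.091 and 0.28 ± 0.091 (SE; Q = 1.26e-05 and 0.0342, edgeR). UBXN4 was lower on days 4 and 8 in its nonsense-mediated decay entry, at -0.92 ± 0.24 and -0.94 ± 0.24 (SE; Q = 0.00413 and 0.00378, edgeR), and on day 8 in its processed transcript entry, at -0.52 ± 0.13 (SE; Q = 0.00467, edgeR).

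UFD1L was the member whose biotype makeup changed most. Biotypes other than protein-coding, mainly retained intron, held 67.6%, 65.6%, 67.4%, 61.4% and 59.5% of its counts in the day 0 libraries. They held 26.2%, 18.9%, 16.6%, 14.5% and 18.6% in the day 1 libraries. The shares did not overlap, and the mean fell by 45.3 percentage points (exact permutation test, adjusted over 36 tests of 6 members, p = 0.0357). The retained intron entry itself had a log2 difference of 0.47 ± 0.18 on day 1 (SE; Q = 0.0545, edgeR), beside 3.63 ± 0.13 for the protein-coding entry in the same fit. On days 2 and 4 the retained intron entry was lower than on day 0, at -0.61 ± 0.18 and -0.62 ± 0.18 (SE; Q = 0.0130 and 0.0158, edgeR), while the protein-coding entry was higher. The share was 25.8%, 41.5%, 59.6%, 49.1% and 45.9% from day 2 to day 10, and differed from day 0 on days 2, 4 and 10 (adjusted p = 0.0357 each, exact permutation test) but did not pass on days 6 and 8. UFD1L had as few as 127 counts in a day 0 library over all biotypes, and 3 lncRNA genes overlap it on the opposite strand.

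Of the 36 share tests 8 passed. UBXN4 fell from 42.3 ± 5.75% to 31.2 ± 2.48% in other biotypes on day 1 (SD, n = 5), and UBXN1 fell from 27.4 ± 4.83% to 15.9 ± 3.11%, 15.8 ± 1.21% and 17.0 ± 2.12% on days 4, 6 and 8 (adjusted p = 0.0357 each, exact permutation test). VCP had 52.2 ± 5.08% of its counts outside the protein-coding entry on day 0 and 55.4 ± 2.24% on day 1 (SD, n = 5), which did not pass (adjusted p = 0.466, exact permutation test). NSFL1C, at 54.8% on day 0 and 54.7% on day 1, and NPLOC4, at 3.29% and 4.53%, did not pass on any day. The division of reads among biotypes of a gene is an estimate of the pseudoaligner, and its error was not tested.

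**Figure D4:**
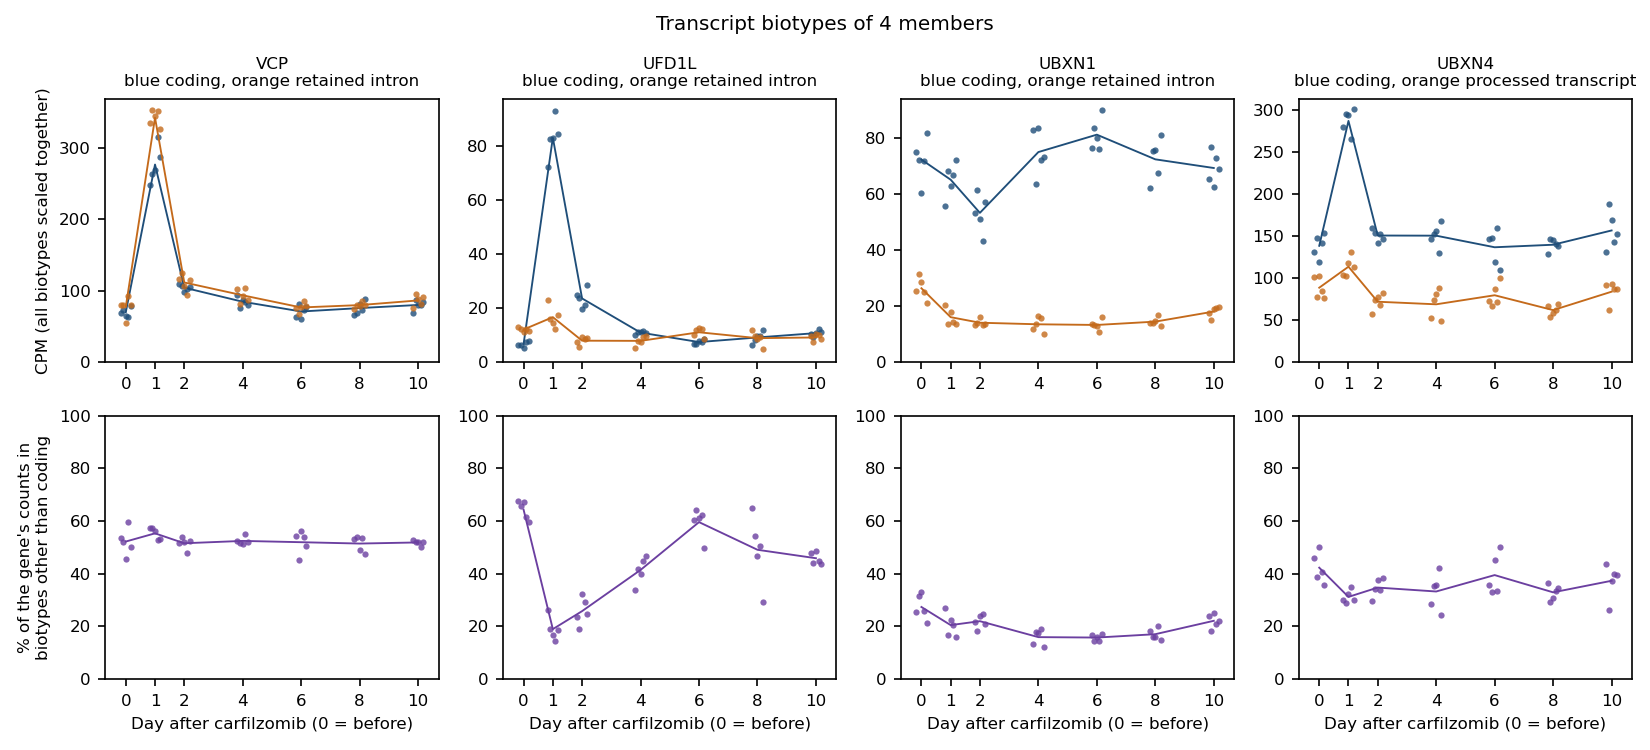
Upper panels give CPM, scaled over all biotypes, of the protein-coding entry (blue) and of the largest other entry (orange) of VCP, UFD1L, UBXN1 and UBXN4 by day, and lower panels give the percentage of the gene's counts in biotypes other than protein-coding, with 1 point per library and lines through day means. That share in UFD1L drops from a mean of 64.3% on day 0 to 19.0% on day 1, while that of VCP lies between 51.5% and 55.4% in day means.

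A wider list of 30 further genes whose products act with VCP was described in the same fit. On day 1, 11 rose, beside 25.4% of all entries called higher, 10 fell, beside 27.3% called lower, and 9 did not pass. Their median log2 fold change was 0.048, beside -0.061 over all entries tested. Past 2-fold, 3 rose, beside 7.27% of all entries called higher at that cutoff, namely ZFAND2A (AIRAP), an arsenite-inducible proteasome partner, at 1.71 ± 0.14, and the UBX proteins UBXN11 at 1.44 ± 0.22 and UBXN8 at 1.38 ± 0.18 (SE; Q at most 4.27e-07, edgeR). Another 5 fell more than 2-fold, beside 13.2% of all entries, namely ZFAND1 at -1.78 ± 0.087, the ER degradation factor DERL3 at -1.75 ± 0.086, the rhomboid protease RHBDD1 at -1.15 ± 0.095 and the deubiquitinase YOD1 at -1.13 ± 0.13 (SE; Q at most 4.64e-10, edgeR), and UBXN10, a cofactor with a role in cilia, which had 46 counts over the 5 day 0 libraries and 5 over the 5 day 1 libraries. The ER membrane genes DERL1, DERL2, SYVN1 and VIMP (SELENOS) also fell, by 0.21 to 0.79 on the log2 scale. In the all-biotype fit USP13 was past 2-fold at 1.20, RHBDD1 and YOD1 were within it at -0.94 and -0.92, and DERL1 did not pass. On day 10, 6 were higher, beside 16.1% of all entries, 11 lower, beside 15.8%, and 13 did not pass, with the highest value for the deubiquitinase USP13 at 0.75 ± 0.089 (SE; Q = 6.27e-09, edgeR) and the lowest for UBXN10 at -0.98 ± 0.49, which did not pass.

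**Figure D5:**
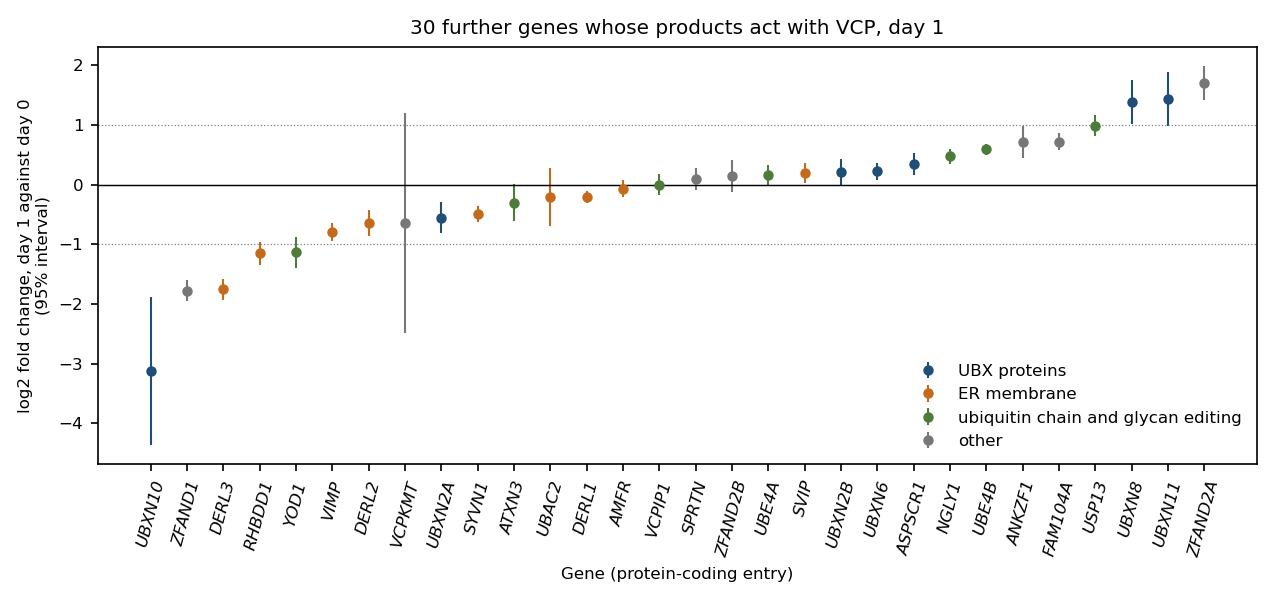
Log2 fold change on day 1 against day 0 (vertical axis) of 30 further genes whose products act with VCP, ordered by value (horizontal axis), with bars for the 95% interval and dotted lines at a 2-fold change. The upper line is passed by 3 genes and the lower by 5, with ZFAND2A highest at 1.71 and UBXN10, which had few counts, lowest.

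The genes whose log2 CPM followed a member most closely over the 35 libraries were named from 12340 entries that passed a filter on low counts. For VCP they were the proteasome subunit genes PSMD14 (Pearson r = 0.987) and PSMB6 (r = 0.987), and BABAM1 (r = 0.987). For UFD1L they were XRCC6 (r = 0.985), PSMD1 (r = 0.984) and PSMB3 (r = 0.982), and for NPLOC4 SUPT6H (r = 0.979), PCYT1A (r = 0.972) and PSMC2 (r = 0.969). These are descriptions over libraries that share days and scaling, in which the step between day 1 and the other days weighs most.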

How the data were processed

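RNA was sequenced from RPMI-8226 cells on 7 days with 5 libraries each, from a directional library kit. As deposited, values are estimated counts, which the authors computed using Kallisto 0.44.0 on the GENCODE transcriptome of GRCh38.p12, adjusted for GC content, and imported with tximport. These expected counts were deposited as whole numbers, per symbol and transcript biotype, without scaling for library size. Whether the counting used strand is not given in the sources used here.

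The 17999 of 19665 protein-coding entries that had any count were fitted with edgeR 4.0.16 (glmQLFit and glmQLFTest, TMM factors between 0.929 and 1.08, all 35 libraries in 1 model of day) in R 4.3.3, with Benjamini-Hochberg adjustment (Q) over all entries of a comparison, and called at Q ≤ 0.05. The method was tested on simulated data in which only a small part of the entries changed, so the choice of scaling was not tested there. Ratios used log2(count + 0.5), and shares were tested for members with a mean of at least 10 other-biotype counts per library, both with exact two-sided permutation tests of 252 assignments in Python 3.11.15. Gene positions came from GENCODE release 44 and promoters from RefSeq. The alternatives were RLE factors, no factors, filterByExpr, DESeq2 1.42.0, a replicate block, a fit of only the days compared, counts summed over biotypes, other fold cutoffs, a pseudocount of 2, each library left out, and, added after seeing the data, protein-coding entries taken from the fit of all biotypes. All members are named, with other cofactors past 2-fold on day 1 or highest or lowest on day 10, the 3 genes most correlated with VCP, NPLOC4 and UFD1L, and other-biotype entries with a mean of at least 10 counts. The members and lists were chosen with earlier results of these data known. A marker of another lineage that was also examined is not reported here.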

Additional observations from a re-analysis of the deposited data

Results flagged for a closer look

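NPLOC4, NSFL1C and FAF2 differed between the acute and the late response, since each was above day 0 on day 1 and below day 0 on day 10, and both differences and the change from day 1 to day 10 passed the test in the fit of protein-coding entries. In the all-biotype fit the day 10 differences of FAF2 and NSFL1C, -0.15 and -0.43, did not pass, and that of NSFL1C was also lost without day 0 replicates 2 or 5 (-0.41 and -0.46) or day 10 replicate 5 (-0.38). Day 10 against day 1 gave a log2 difference of -1.73 for NPLOC4, -2.06 for NSFL1C and -0.56 for FAF2.

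In 3 of 63 groups of 5 libraries, 1 library stood far from the others by Dixon's criterion, where chance gives about 1 in 20. VCP on day 10 was 86.9 CPM in replicate 1, below the next library at 100.3 CPM. NPLOC4 on day 0 was 173 CPM in replicate 2, above the next at 162 CPM. UBXN4 on day 1 was 298 CPM in replicate 4, below the next at 329 CPM.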

How the results depend on the processing

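Of 1922 repeats for single genes, ratios and shares, 1820 were counted as the same. In most settings this meant the same direction and the same side of the threshold. For ratios and shares with a library left out, it meant a shift smaller than the larger SD of the days compared. In that case a value near 0 that had not passed could turn its sign. Of 438 repeats of counts, 410 stayed within 1.5 times. With a cutoff of 4-fold, 1 member passed on day 1 and 0 on day 2, and with 1.5-fold 2 passed on day 2 and 1 on each of days 6 and 10. With biotypes summed, 0 members passed the 2-fold cutoff on day 2, 5 were lower on each of days 4 and 8, and 1 was higher on each of days 8 and 10. Without TMM factors 2 members were higher on day 6, and a fit of only the libraries compared gave 1 higher on day 8. Members differing between days 4 and 6 were 2 with DESeq2, filterByExpr, summed biotypes or no factors, 1 differed between days 6 and 8 without factors, and 1 between days 8 and 10 with summed biotypes. In the all-biotype fit, chosen after seeing the data, 0 members were lower on day 1 and 1 on each of days 2 and 10. Of all protein-coding entries, those called lower on these days went from 27.3%, 24.4% and 15.8% to 17.3%, 13.9% and 8.48%. For the other settings of this paragraph the share over all entries is not given, so their counts describe the members only. With each library left out, the members higher on day 8 ranged from 1 to 2. The causes were not tested.

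The sign turned for values near 0. Without factors these became 0.0080 for VCP on day 6, 0.021 for NSFL1C on day 2, 0.027 and 0.10 for UBXN7 on days 1 and 2, 0.032 for UBXN1 on day 4, and 0.067 and 0.11 for UBXN4 on days 2 and 4. With summed biotypes they became -0.064, -0.056 and -0.096 for UFD1L on days 4, 6 and 8, of which days 4 and 8 had been called, 0.030 for UBXN7 on day 2, -0.076 for UBXN1 on day 6, and 0.28, 0.031, 0.14 and 0.10 for the ratio of VCP to UFD1L from day 4 to day 10. In the all-biotype fit they became 0.020 for VCP on day 6, 0.088 for NSFL1C on day 2, 0.12 and 0.16 for UBXN7 on days 1 and 2, 0.053 and 0.0013 for UBXN1 on days 4 and 8, 0.12, 0.12 and 0.014 for UBXN4 on days 2, 4 and 8, and 0.043 for PLAA on day 8. A fit of only the days compared gave 0.0075 for UBXN7 on day 2 and 0.0077 for UBXN4 on day 4, and filterByExpr gave 1.11e-04 for UBXN4 on day 4 and 0.0063 for the nonsense-mediated decay entry of NSFL1C on day 4. Leaving out single libraries gave ranges of -0.092 to 9.30e-06 for VCP on day 6, -0.031 to 0.060 for VCP on day 8, -0.041 to 0.047 and -0.13 to 9.69e-05 for UBXN4 on days 4 and 6, and -0.013 to 0.077 for PLAA on day 4.

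Replicate numbers were not used to pair libraries in the main fit, and whether they mark related subcultures was not tested. Deviations of 105 same-numbered pairs correlated between -0.12 and 0.14, 2 of them above 0.1, and 14 of 35 libraries were closest to their own number. With the replicate number as a block, 1 member differed between days 8 and 10 in place of 0. Depth limits FAF1 and UBXN10.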

Other observations

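The genes beside FAF1 on chromosome 1 were looked at after its low counts had been seen. CDKN2C, the next protein-coding gene, had 0 counts in all 35 libraries, as did C1orf185 beyond it. At this depth 0 counts do not exclude a low level. On the other side DMRTA2 and ELAVL4 had 1 count each. Farther out, RNF11 had 418 to 789 counts per library, TTC39A 45 to 127 and EPS15 315 to 750.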
